A study of Mus musculus with 35 samples.

Results

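*Tmem47* is 1 of the 49671 genes in the deposited count table, and its counts are described here in all 35 libraries of the series, 5 for each of 7 conditions. It was chosen by its symbol because earlier results of these data showed it rising from almost no reads in cells that expressed the G-NHA9Midi construct. Its own levels across the conditions are therefore given as a description, without a test. All cells were lin- hematopoietic stem and progenitor cells (HSPC), which are bone marrow cells depleted of the mature blood lineages, taken from male and female C57Bl/6 mice. A lentivirus brought in the construct, and cells that fluoresced were sorted. The sort differed between conditions: empty vector cells were taken for mCherry alone, and cells with a construct for both mCherry and mEGFP. Colonies were grown in methylcellulose with cytokines for 1 week before stranded total RNA libraries were made. The study compared the conditions to relate gene expression to the FG motifs and the DNA binding of the NUP98-HOXA9 fusion oncoprotein.

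The control cells carried the vector with no fusion (labelled Empty), and the other 6 conditions carried NUP98-HOXA9 with a fluorescent mEGFP tag. G-NHA9 (labelled G-NHX9) is the unmutated fusion, in which the FG-rich N-terminal part of NUP98 is joined to the homeodomain of HOXA9. In G-NHA9-8FA (G-NHX9-8FA), 8 phenylalanines of FG motifs are changed to alanine. In G-NHA9-21FGAA (G-NHX9-21FGAA), 21 FG motifs in the C-terminal stretch of the NUP98 part are changed to AA. G-NHA9Midi (G-NHX9-midi) keeps this C-terminal FG stretch and lacks the rest of the NUP98 part, including its GLEBS domain, and G-NHA9Midi-21FGAA (G-NHX9-midi-21FGAA) is the same truncation with those FG motifs changed to AA. G-NHA9-ΔDNA (G-NHX9-DDNA) has the full FG region and a homeodomain mutated so that it binds DNA weakly. The mice were 8 weeks old by the labels, except for those of empty vector replicates 4 and 5 (9 and 10 weeks) and of G-NHA9 replicate 1 (11 weeks). The constructs were overexpressed from a virus in sorted, mixed progenitor cultures. The methods describe cells isolated in parallel and transduced in triplicate. The differing ages, if the labels are right, would mean that some libraries came from different mice. The sources used here do not tie each of the 5 libraries of a condition to its own mouse or culture, so the spread between them may be partly technical.

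Total counts were between 31559914 and 75810659 per library, and values are given as CPM, which are counts scaled to a common library size, here with TMM factors, and with mean ± SD over 5 libraries. A count of 0 allows up to 3 counts, from 0.0382 CPM in the deepest library to 0.0996 CPM in the shallowest, a limit for counting error alone. Every library held both *Xist* and Y-linked transcripts, with *Xist* between 245 and 913 CPM and the summed Y-linked genes between 13.1 and 67.8 CPM, so each library contained RNA of both sexes. The 5 pan-leukocyte markers were above the 3-count limit in every library, with a summed level of 3170 to 3650 CPM in G-NHA9Midi and 3210 to 3670 CPM in the empty vector.

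*Tmem47* encodes a small membrane protein that crosses the membrane several times and belongs to the PMP22/EMP/claudin superfamily. It is known from epithelial cells, where it sits at cell-cell contacts of the adherens junction type, and it has been linked to the kinase Fyn and to the polarity complex of Par6 and atypical protein kinase C. Claudins seal the tight junctions between epithelial cells, and the related EMP and PMP22 proteins act in adhesion, blebbing and myelin. Blood progenitors grow as loose cells without epithelial junctions.

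In the mouse genome build GRCm38, GENCODE release M21 places *Tmem47* (ENSMUSG00000025666.16) on the forward strand of the X chromosome at chrX:81070698-81097872. The gene spans 27175 bases and has 3 exons with 4025 exon bases in all. It has 3 annotated transcripts, of which Tmem47-201 and Tmem47-203 code for protein and Tmem47-202 does not. A long noncoding RNA gene, *Gm26775* (ENSMUSG00000096919.1), lies on the reverse strand over its start, at chrX:81070694-81073102. The whole first exon of *Tmem47*, 463 bases or 11.5% of its exon bases, is shared with this antisense gene.

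**Figure D1:**
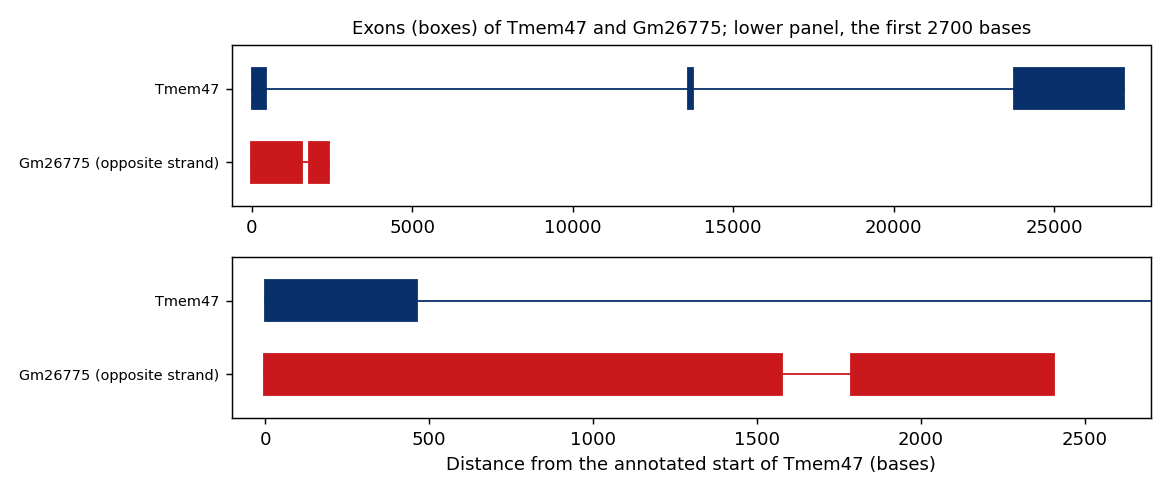
Exons of *Tmem47* (blue) and of *Gm26775* on the opposite strand (red) against the distance in bases from the annotated start of *Tmem47*, for the whole gene (upper panel) and its first 2700 bases (lower panel). The first of the 3 *Tmem47* exons lies within the first *Gm26775* exon, and the other 2 exons, which start 13593 and 23754 bases downstream, overlap no *Gm26775* exon.

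The promoter is shown because the *Tmem47* transcript went from near 0 to a readily counted level between conditions. The 250 bases before the RefSeq start (GRCm38.p6, chrX:81070394-81070643, forward strand) read as follows, with capitals for matches to the E-box CACGTG and to the GC box GGGCGG.

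Tmem47 promoter: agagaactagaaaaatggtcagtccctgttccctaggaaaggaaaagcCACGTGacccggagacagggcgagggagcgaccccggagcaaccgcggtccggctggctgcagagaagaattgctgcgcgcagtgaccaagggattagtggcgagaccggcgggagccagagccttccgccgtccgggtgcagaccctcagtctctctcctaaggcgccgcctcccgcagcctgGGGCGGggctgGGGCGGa

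This window was rich in G and C, at 65.6%, above 83.8% of the 32851 RefSeq promoters of the same length, whose median was 52.4%. It held 21 CpG dinucleotides, against a median of 6. The 1 E-box began 202 bases before the start, and 6.02% of all promoters held such a match on either strand. The 2 GC boxes began 18 and 7 bases before the start, and 32.7% of promoters held at least 1. Searches on both strands found no TATAAA (present in 12.4% of promoters), no TTTAT (37.3%), no TGACAG (15.9%) and no TAATTA (4.84%) in this window. The last 3 are cores recognized by posterior HOX proteins, by MEIS proteins and by many homeodomains. No motif overlapped another. These are matches of letters in 1 window and not measured binding sites.

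*Tmem47* was close to absent in empty vector cells. It had 1 read in replicate 1 and none in replicates 2 to 5, so that no library exceeded the 3-count limit. In G-NHA9Midi cells it had 640, 687, 688, 248 and 473 reads in replicates 1 to 5, which are 12.8, 20.6, 14.1, 6.63 and 9.74 CPM. All 5 G-NHA9Midi libraries lay far above every empty vector library, and the lowest of them, replicate 4, lay within the range of the G-NHA9-8FA libraries (3.97 to 8.53 CPM). The mean was 12.8 ± 5.25 CPM (SD, n = 5), which is 159-fold the mean 3-count limit of the empty vector libraries. Such folds over a limit are lower bounds on the fold over the condition itself.

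The G-NHA9-8FA cells had the next highest level. Their libraries held 4.17, 3.97, 5.41, 4.54 and 8.53 CPM in replicates 1 to 5. Their mean was 5.33 ± 1.87 CPM (SD, n = 5), 66.3-fold the mean limit in the empty vector, again a lower bound. The first 4 replicates lay close together and replicate 5 stood above them. The G-NHA9Midi mean was 2.4-fold that of G-NHA9-8FA, but the conditions overlapped, since G-NHA9Midi replicate 4 was below G-NHA9-8FA replicate 5. The other 4 G-NHA9Midi libraries were above all 5 G-NHA9-8FA libraries. These neighbours in the order of levels were therefore not fully separated by their spread. Between libraries of the same number, the ratio of G-NHA9Midi to G-NHA9-8FA was 3.06, 5.19, 2.6, 1.46 and 1.14.

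With unmutated G-NHA9, *Tmem47* was detected in every library but at a low level. The 5 libraries had 11, 32, 11, 7 and 20 reads, or 0.306, 0.677, 0.319, 0.173 and 0.52 CPM. All were above the empty vector and below every G-NHA9-8FA library. The mean of 0.399 ± 0.199 CPM (SD, n = 5) was 4.97-fold the mean limit in the empty vector, again a lower bound. The G-NHA9-8FA mean was 13.3-fold higher than that of G-NHA9, and the G-NHA9Midi mean 32-fold.

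G-NHA9-21FGAA cells were uneven. They had 18, 0, 7, 3 and 0 reads in replicates 1 to 5, or 0.383, 0, 0.137, 0.0423 and 0 CPM. Replicates 1 and 3 were above the 3-count limit, and replicate 1 lay within the range of the G-NHA9 libraries. Their mean was 0.112 ± 0.161 CPM (SD, n = 5), and their SD exceeded it. The ratio of the G-NHA9 mean to this mean was 3.55, with overlapping libraries, whereas all G-NHA9Midi libraries were above all G-NHA9-21FGAA libraries and the ratio of means was 114.

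In the remaining constructs *Tmem47* stayed at or under the limit. G-NHA9Midi-21FGAA libraries had 1, 2, 0, 0 and 2 reads, and G-NHA9-ΔDNA libraries had 0, 0, 0, 2 and 0. These conditions and the empty vector could not be ordered at this depth. The G-NHA9Midi mean was 226-fold the mean limit in G-NHA9Midi-21FGAA, which is the same truncation with its FG motifs changed. It was 192-fold the mean limit in G-NHA9-ΔDNA, and both folds are lower bounds. The order of mean levels was thus G-NHA9Midi, G-NHA9-8FA, G-NHA9 and G-NHA9-21FGAA, followed by the 3 conditions at the limit. In mixed cultures, more cells with the transcript and more transcript per cell cannot be told apart.

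**Figure D2:**
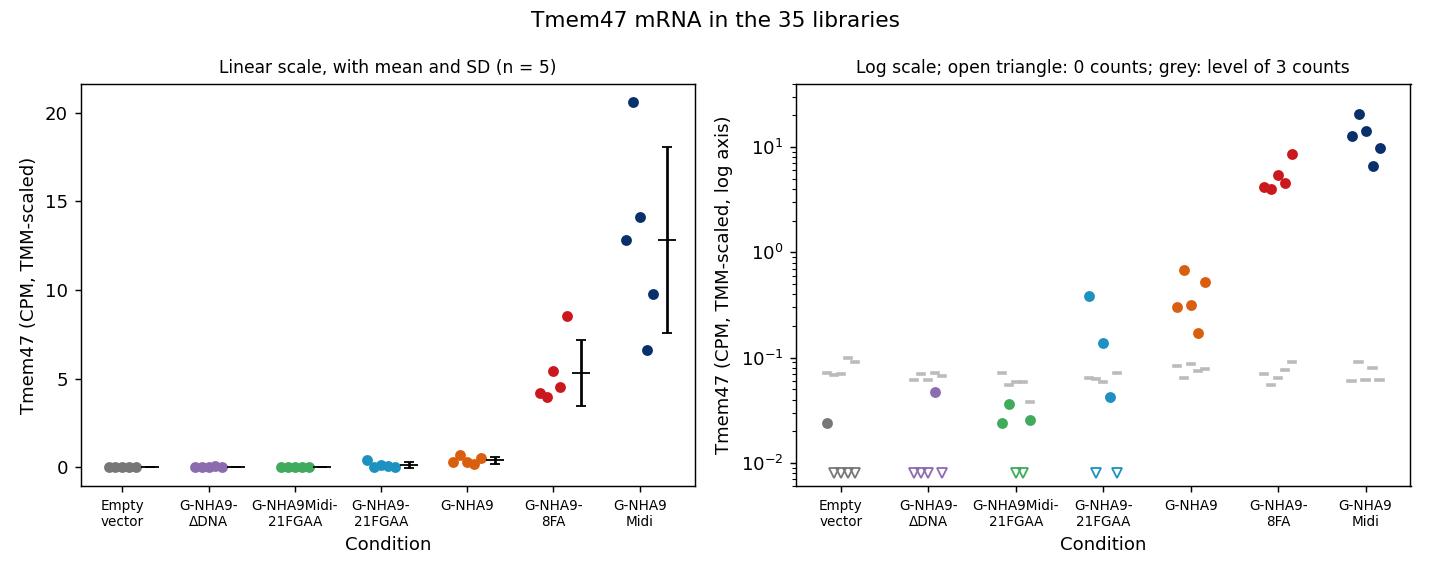
*Tmem47* in each of the 35 libraries in TMM-scaled CPM, on a linear axis with the mean and SD of 5 libraries (left) and on a log axis (right), where open triangles are libraries with 0 counts and grey dashes the level of 3 counts in that library. G-NHA9Midi libraries lie between 6.63 and 20.6 CPM and G-NHA9-8FA libraries between 3.97 and 8.53 CPM, while no library of the empty vector, G-NHA9-ΔDNA or G-NHA9Midi-21FGAA reaches its grey dash.

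The spread among libraries with *Tmem47* was larger than counting alone gives. The SD was 41.1% of the mean in G-NHA9Midi, where counting error accounts for 4.35%, and 35.2% in G-NHA9-8FA, where it accounts for 6.84%. In G-NHA9 it was 49.8%, against 25% from counting. Divided by exon length, the G-NHA9Midi level was 3.17 CPM per kilobase, above 51.3% of the 17124 tested genes with a length and close to their median of 2.95. The G-NHA9-8FA level of 1.32 CPM per kilobase was above 37.9% of genes, and the G-NHA9 level of 0.0991 CPM per kilobase was above 8.33%.

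Markers of cells that normally have junctions were examined beside these levels. Of 9 stromal markers, 2 were above the 3-count limit in every G-NHA9Midi library, and their summed level was 14.1 to 22 CPM there, 9.67 to 22.9 in G-NHA9-8FA, 52.8 to 74.9 in G-NHA9 and 5.05 to 8.91 in the empty vector. Most of that sum in G-NHA9Midi was *Lepr*, the leptin receptor, at 14.2 ± 3.03 CPM (SD, n = 5). *Lepr* was at 3.68 ± 1.26 CPM in the empty vector (SD, n = 5). *Pdgfrb* and *Cxcl12* also had higher means in G-NHA9Midi than in the empty vector. *Pdgfrb* was at 2.26 ± 0.503 and 0.882 ± 0.33 CPM, and *Cxcl12* at 0.111 ± 0.0499 and 0.0504 ± 0.0265 CPM (SD, n = 5). *Pdgfra* was lower in G-NHA9Midi, at 0.165 ± 0.133 and 1.27 ± 0.273 CPM (SD, n = 5). The matrix genes were low in both conditions. In G-NHA9Midi *Lum* was at 0 in all 5 libraries, *Dcn* at 0.0204 ± 0.0354 CPM and *Col3a1* at 0.0442 ± 0.0259 CPM (SD, n = 5). In the empty vector they were at 0.00462 ± 0.0103, 0.0428 ± 0.0709 and 0.0438 ± 0.0566 CPM (SD, n = 5). *Col1a1* was at 0.158 ± 0.046 CPM in G-NHA9Midi and 0.298 ± 0.205 CPM in the empty vector (SD, n = 5). *Col1a2* was at 0.133 ± 0.0712 and 0.56 ± 0.188 CPM (SD, n = 5). Of 9 endothelial markers, 7 were above the limit in every G-NHA9Midi library, but their summed level was lower there (18.6 to 31.5 CPM) than in the empty vector (41.2 to 82 CPM). In the empty vector 5 of these 9 were above the limit in every library. Most of the difference in the sum was *Kdr*, a VEGF receptor gene, at 14.9 ± 3.68 CPM in G-NHA9Midi and 52.5 ± 14.9 CPM in the empty vector (SD, n = 5). *Esam* was also lower in G-NHA9Midi than in the empty vector, at 0.474 ± 0.195 and 4.95 ± 1.6 CPM (SD, n = 5). So were *Tie1*, at 0.408 ± 0.178 and 1.8 ± 0.498 CPM, and *Tek*, at 0.159 ± 0.0509 and 0.392 ± 0.196 CPM (SD, n = 5). *Emcn*, *Plvap* and *Egfl7* had higher means in G-NHA9Midi than in the empty vector. *Emcn* was at 0.506 ± 0.236 and 0.0107 ± 0.0149 CPM, *Plvap* at 0.188 ± 0.0568 and 0.0565 ± 0.0292 CPM, and *Egfl7* at 7.84 ± 1.87 and 6.55 ± 1.4 CPM (SD, n = 5). The endothelial junction genes *Cldn5* and *Cdh5* were near 0 in G-NHA9Midi, at 0.00535 ± 0.012 and 0.0269 ± 0.0251 CPM (SD, n = 5). The part of these cell types in the *Tmem47* level was not tested.

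*Gm26775*, the antisense gene, had 29 reads over the 35 libraries, 14 of them in G-NHA9Midi (5, 1, 3, 3 and 2 in replicates 1 to 5) and 7 in G-NHA9-8FA. The empty vector had 1 read in all. Its mean was 0.0625 ± 0.0283 CPM (SD, n = 5) in G-NHA9Midi and 0.00459 ± 0.0103 CPM (SD, n = 5) in the empty vector. The libraries did not overlap, but only narrowly. Replicate 2 had 1 read in each condition, at 0.03 CPM in G-NHA9Midi and 0.023 CPM in the empty vector. The order of these single reads, both under the 3-count limit, rests on library size. An exact two-sided permutation test gave p = 0.00794, which is the smallest value 5 against 5 libraries can give, and 0.0556 after Benjamini-Hochberg adjustment over the neighbouring genes. That smallest value depends on the narrow gap. Whether the strand was used in counting is not given in the sources used here. It is therefore not known how reads in the exon shared with *Tmem47* were assigned, or whether they were left out.

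The surroundings of *Tmem47* are poor in genes. The nearest counted genes are *Gm14733*, *Gm6954* and *Gm8806* on the left, 137.8, 404.2 and 535.5 kilobases away, and *Gm14754*, *4930595M18Rik* and *Gm8822* on the right, 173.9, 321.7 and 722.5 kilobases away. Of these, *4930595M18Rik* codes for a protein and the others are processed pseudogenes, whose reads may belong to their parent genes. *Gm14733* had no reads, *Gm6954* 2, *Gm14754* 6 and *4930595M18Rik* 11 over all libraries. *4930595M18Rik* was at 0.0269 ± 0.0205 CPM (SD, n = 5) in G-NHA9Midi and 0.0113 ± 0.0158 CPM (SD, n = 5) in the empty vector, with p = 0.238 by the exact permutation test (adjusted p = 0.681).

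Only *Gm8806* and *Gm8822* had enough reads for the test across all genes, the quasi-likelihood test of edgeR, with p-values adjusted by Benjamini-Hochberg, and changes are given as the log2 of the fitted fold (log2 change). *Gm8806* was at 1.12 ± 0.285 CPM (SD, n = 5) in G-NHA9Midi and 0.863 ± 0.429 CPM (SD, n = 5) in the empty vector, a log2 change of 0.39 (SE 0.28, adjusted p = 0.27 by edgeR). *Gm8822* was at 3.47 ± 0.99 CPM and 3.98 ± 0.807 CPM (SD, n = 5), a log2 change of -0.19 (SE 0.18, adjusted p = 0.42 by edgeR). Neither passed the threshold of 0.05 in any of the 8 comparisons made. Without empty vector replicate 4, *Gm8806* passed it in G-NHA9Midi against the empty vector, with a log2 change of 0.69 and an adjusted p of 0.046 by edgeR, and in G-NHA9 against the empty vector, with 0.81 and an adjusted p of 0.022.

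The other genes of the PMP22/EMP/claudin superfamily were followed as a list of 45, of which 44 were in the table and 16 had enough reads to be tested. The other 28 never exceeded 11 reads in a library. In G-NHA9Midi against the empty vector, 3 of the 16 rose, 8 fell and 5 did not pass the test, which is 68.8% called beside 40.5% of all 17166 genes tested. The median log2 change of the 16 was -0.41, and that of all genes 0.02. Whereas *Tmem47* reached its highest level in these cells, more relatives fell than rose.

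*Cldn11*, a tight junction claudin of oligodendrocytes and Sertoli cells, rose most in the list. It was at 0.672, 0.23, 0.416, 0.398 and 0.643 CPM in the empty vector replicates and at 5.56, 9.78, 8.45, 10.5 and 11.8 CPM in those of G-NHA9Midi. The groups did not overlap, and the log2 change was 4.29 (SE 0.41, adjusted p = 5.7e-10 by edgeR). Its pattern differed from that of *Tmem47* in the other constructs. *Cldn11* was at 6.21 ± 1.72 CPM (SD, n = 5) in G-NHA9, above its 4.01 ± 1.91 CPM (SD, n = 5) in G-NHA9-8FA, and at 1.75 ± 0.568 CPM (SD, n = 5) in G-NHA9-21FGAA. Over the 35 libraries its Pearson correlation with *Tmem47* on the log2 CPM scale was 0.764, which put it at place 620 of 17165 genes.

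*Cldn15* and *Cldn12*, both claudins, also rose in G-NHA9Midi. *Cldn15* went from 11.3 ± 2.61 to 30.2 ± 9.72 CPM (SD, n = 5), a log2 change of 1.42 (SE 0.23, adjusted p = 5.9e-06 by edgeR). *Cldn12* went from 10.1 ± 2.17 to 21.4 ± 3.02 CPM (SD, n = 5), a log2 change of 1.08 (SE 0.17, adjusted p = 4.7e-06 by edgeR).

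*Cldn13*, a rodent claudin found in erythroid cells, went the other way. It had no read in any of the 5 G-NHA9Midi libraries and 4.39, 4.89, 2.47, 1.1 and 1.53 CPM in the empty vector replicates, so that it was at least 40.7-fold lower (adjusted p = 4.9e-09 by edgeR). It was also at or under the 3-count limit in all G-NHA9-8FA libraries, whereas it was at 2.35 ± 1.2 CPM (SD, n = 5) in G-NHA9 and at 8.29 ± 3.47 CPM (SD, n = 5) in G-NHA9Midi-21FGAA. The summed level of 10 erythroid markers moved alike, at 40.9 to 77.9 CPM in G-NHA9Midi, 23.4 to 72 in G-NHA9-8FA, 218 to 681 in the empty vector and 471 to 1520 in G-NHA9Midi-21FGAA. All 10 of these markers were above the limit in every empty vector library, 7 in every G-NHA9Midi library, and none was at 0 throughout a condition. Their part in the fall of *Cldn13* was not tested.

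*Cldn23* and *Cldn1* fell as well. *Cldn23* went from 0.664 ± 0.355 to 0.0905 ± 0.0355 CPM (SD, n = 5), a log2 change of -2.82 (SE 0.51, adjusted p = 3.5e-05 by edgeR). *Cldn1*, a claudin of the epidermal barrier, went from 4.67 to 8.28 CPM over the empty vector libraries to 0.93 to 2.7 CPM over those of G-NHA9Midi, a log2 change of -1.78 (SE 0.24, adjusted p = 4.6e-07 by edgeR). *Pmp22*, a protein of peripheral myelin, and *Emp2* fell too, with log2 changes of -1.58 and -1.53 (adjusted p = 5.6e-07 and 2.2e-07 by edgeR). *Emp1* was at 153 ± 29.9 and 200 ± 25.7 CPM (SD, n = 5) and *Emp3* at 143 ± 12.9 and 142 ± 25 CPM (SD, n = 5) in G-NHA9Midi and the empty vector, and neither of these abundant relatives passed the test.

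The list was also counted in the other comparisons. In G-NHA9-8FA against the empty vector 5 members rose and 6 fell, beside 26.6% of all genes called. In G-NHA9 4 rose and 4 fell, beside 32.1%. In G-NHA9-21FGAA 6 rose and 2 fell, beside 27.1%. In G-NHA9Midi-21FGAA 3 rose and 2 fell, beside 16.9%, and in G-NHA9-ΔDNA 4 rose and 3 fell, beside 17.2%. These comparisons share the empty vector libraries. Single libraries bore on 3 of these counts: 3 members were called in G-NHA9Midi-21FGAA without its replicate 3 or without empty vector replicate 4, 5 in G-NHA9-21FGAA without empty vector replicate 5, and 4 in G-NHA9-ΔDNA without its replicate 3 or without the filter on low counts. Between G-NHA9Midi-21FGAA and G-NHA9Midi, 7 members were higher and 4 lower in the former, beside 43.2% of all genes called.

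Between the 2 conditions with the most *Tmem47*, G-NHA9Midi and G-NHA9-8FA, 1 member of the list was higher in G-NHA9Midi and 2 were lower, beside 4.25% of all genes called. *Cldn11* was higher, with a log2 change of 1.2 (SE 0.34, adjusted p = 0.039 by edgeR). *Cldn10* and *Cldn1* were lower, with log2 changes of -2.04 (SE 0.52, adjusted p = 0.018 by edgeR) and -0.85 (SE 0.24, adjusted p = 0.039 by edgeR). *Cldn10* was at or below 5 reads in every G-NHA9Midi library. These calls were not stable: none was left without G-NHA9Midi replicate 2 or replicate 3 or in a fit to these 2 conditions alone, 1 was left without G-NHA9-8FA replicate 1, 2 or 4 or G-NHA9Midi replicate 5, and DESeq2 called 5 members.

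**Figure D3:**
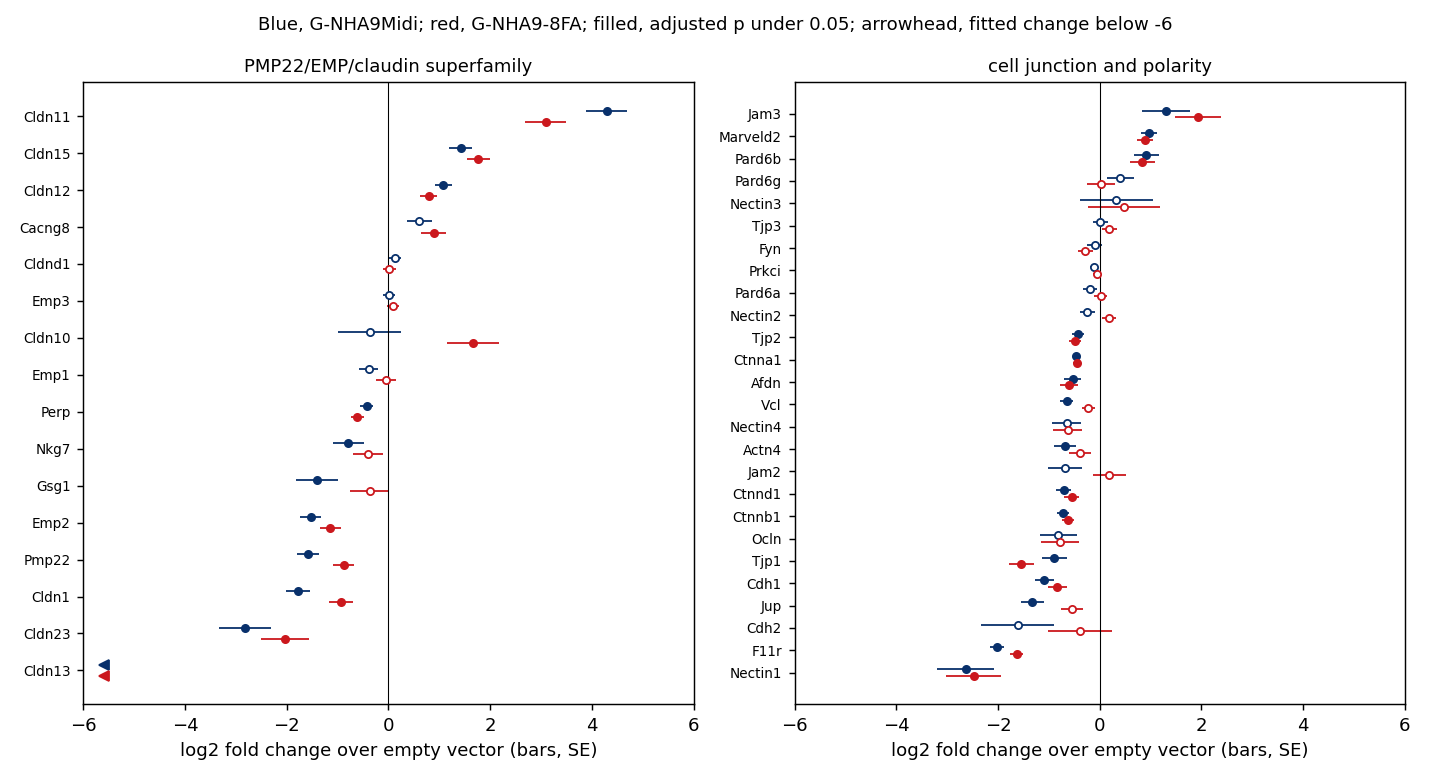
Log2 fold change over the empty vector, with SE, of the tested members of the PMP22/EMP/claudin superfamily (left, 16 genes) and of the cell junction and polarity list (right, 26 genes) in G-NHA9Midi (blue) and G-NHA9-8FA (red), where filled points passed the test. *Cldn11* lies farthest to the right in both conditions on the left panel, and *Cldn13*, drawn as arrowheads at the edge, has a fitted change below the axis that depends on its zero counts.

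A list of 30 cell junction and polarity genes covers adherens junctions, tight junctions and the Par polarity complex, and 26 of them were tested. The 4 others never exceeded 16 reads in a library. In G-NHA9Midi against the empty vector 3 rose, 12 fell and 11 did not pass, which is 57.7% called beside the 40.5% of all genes, with a median log2 change of -0.59. Blood lineage markers differed between the same conditions. The summed eosinophil markers were 34.3 to 103 CPM in G-NHA9Midi and 1160 to 1620 CPM in the empty vector, those of mast cells and basophils 395 to 727 and 1130 to 3430 CPM, and those of macrophages 1320 to 2560 and 2720 to 3540 CPM. The neutrophil markers were 10100 to 21800 and 8670 to 12900 CPM, and the stem and progenitor markers 291 to 425 and 301 to 437 CPM. The part of these shifts in the changes of both lists was not tested. The 3 junction genes that rose were *Jam3*, *Marveld2* and *Pard6b*.

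*Nectin1*, a nectin of adherens junctions, went from 1.11 ± 0.562 to 0.17 ± 0.0781 CPM (SD, n = 5), a log2 change of -2.63 (SE 0.56, adjusted p = 0.00027 by edgeR). *F11r*, which encodes the junctional adhesion molecule JAM-A that platelets and leukocytes also carry, was at 40.4, 36.9, 44.2, 40.8 and 47.1 CPM in the empty vector and at 11, 7.83, 9.33, 12.2 and 11.4 CPM in G-NHA9Midi. Its libraries did not overlap, and the log2 change was -2.02 (SE 0.14, adjusted p = 3e-13 by edgeR). The summed level of 6 megakaryocyte markers, all above the limit in every library of both conditions, was 144 to 260 CPM in G-NHA9Midi and 792 to 1410 CPM in the empty vector, and its part in the fall of *F11r* was not tested. *Jup*, which encodes plakoglobin, went from 30.6 ± 7.75 to 12.2 ± 4.12 CPM (SD, n = 5), a log2 change of -1.32 (SE 0.23, adjusted p = 1.8e-05 by edgeR).

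*Jam3*, another junctional adhesion molecule, rose from a low level, from 0.0863 ± 0.0507 to 0.211 ± 0.0964 CPM (SD, n = 5), with a log2 change of 1.31 (SE 0.47, adjusted p = 0.026 by edgeR). The known partners of *Tmem47* differed among themselves. *Fyn* was at 24.8 ± 4.6 and 26.6 ± 5.12 CPM (SD, n = 5) in G-NHA9Midi and the empty vector, with an adjusted p of 0.6 by edgeR, and *Prkci*, an atypical protein kinase C, at 31.3 ± 3.03 and 33.7 ± 1.95 CPM (SD, n = 5), with an adjusted p of 0.31 by edgeR. Of the Par6 genes, *Pard6b* rose from 0.515 ± 0.139 to 0.977 ± 0.27 CPM (SD, n = 5), with a log2 change of 0.92 (SE 0.24, adjusted p = 0.0019 by edgeR), whereas *Pard6a*, at 6.94 ± 1.12 and 7.92 ± 1.1 CPM (SD, n = 5), and *Pard6g*, at 0.759 ± 0.228 and 0.574 ± 0.225 CPM (SD, n = 5), did not pass, with adjusted p of 0.27 and 0.22 by edgeR.

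The junction list was counted in the other comparisons as well. Against the empty vector, 3 members were higher and 9 lower in G-NHA9-8FA (46.2% called, beside 26.6% of all genes), 4 and 8 in G-NHA9 (46.2% beside 32.1%), and 7 and 7 in G-NHA9-21FGAA (53.8% beside 27.1%). There were 4 higher and 2 lower in G-NHA9Midi-21FGAA (23.1% beside 16.9%) and 5 and 2 in G-NHA9-ΔDNA (26.9% beside 17.2%). Between G-NHA9Midi-21FGAA and G-NHA9Midi, 13 members were higher and 3 lower in the former (61.5% beside 43.2%). Between G-NHA9Midi and G-NHA9-8FA none was higher and 2 were lower (7.69% beside 4.25%), *Jup* (log2 change -0.78, adjusted p = 0.041 by edgeR) and *Vcl*, which encodes vinculin (log2 change -0.43, adjusted p = 0.048 by edgeR). Both calls were lost without any 1 of G-NHA9-8FA replicates 2, 4 and 5 or of G-NHA9Midi replicates 1 to 4, and also without TMM, without the filter on low counts or in a fit to these 2 conditions alone. Without TMM, 10 rather than 6 members were called in G-NHA9Midi-21FGAA against the empty vector.

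The genes whose pattern over the 35 libraries was most like that of *Tmem47* were taken by Pearson correlation of log2 CPM with a prior count of 2 among 17165 other genes. They were *Abcg3* (r = 0.957), *Tmem218* (0.949), *Popdc3* (0.948), *Epha7* (0.948), *Rassf6* (0.948), *Glyat* (0.941), *Azgp1* (0.938), *Gm12408* (0.932), *Tgfb2* (0.932) and *Pfn2* (0.931). Because each was chosen for its levels in these libraries, their values are a description. The points share 7 conditions of 5 libraries each, and r therefore holds the differences between condition means. In all, 46 genes had an r of at least 0.9.

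*Abcg3*, an ABC transporter gene of rodents, was most like *Tmem47* by this correlation. It was at 21.2, 34.7, 23.4, 12.2 and 17.6 CPM in G-NHA9Midi and at 7.67, 7.72, 9.86, 9.27 and 19.5 CPM in G-NHA9-8FA. In both conditions its highest library was also the highest for *Tmem47*, replicate 2 in G-NHA9Midi and replicate 5 in G-NHA9-8FA. Unlike *Tmem47*, it was present in the empty vector, at 0.839 ± 0.233 CPM (SD, n = 5). After the condition means were removed, its correlation with *Tmem47* over 15 libraries (those with G-NHA9, with G-NHA9Midi and with G-NHA9-8FA) was 0.884.

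The other genes followed *Tmem47* less closely within conditions. This within-condition correlation was 0.713 for the receptor kinase gene *Epha7*, 0.539 for *Rassf6*, a Ras-association domain gene, 0.5 for *Azgp1*, the zinc-binding alpha-2-glycoprotein, 0.415 for *Tmem218*, a gene of the cilium, 0.311 for the profilin gene *Pfn2* and 0.199 for the glycine acyltransferase gene *Glyat*. It was 0.02 for *Popdc3*, a popeye domain gene, -0.137 for *Gm12408* and -0.179 for the growth factor gene *Tgfb2*. *Azgp1* had 1 read in all 5 empty vector libraries together and reached 4.78, 16.1, 10.7, 4.04 and 8.03 CPM in G-NHA9Midi, with replicate 2 highest and replicate 4 lowest as for *Tmem47*. *Abcg3*, *Popdc3*, *Epha7* and *Tgfb2* overlap other annotated genes, and *Abcg3* and *Glyat* have close paralogs between which reads may be split.

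**Figure D4:**
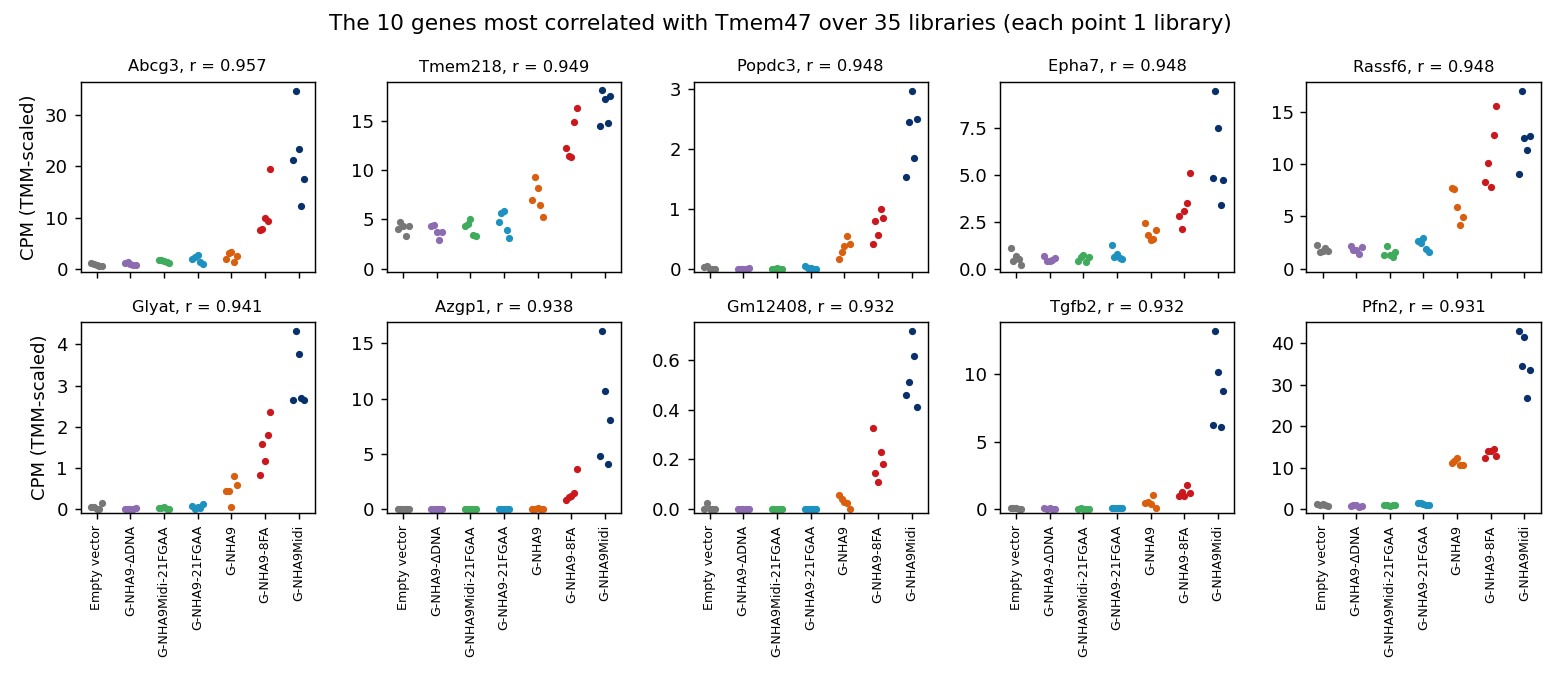
CPM of the 10 genes most correlated with *Tmem47*, each point 1 library, with conditions ordered by the mean *Tmem47* level and the Pearson r over 35 libraries above each panel. In *Tmem218* and *Rassf6* the G-NHA9-8FA and G-NHA9Midi libraries overlap, whereas in *Tgfb2* and *Pfn2* G-NHA9Midi lies apart from every other condition.

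*Tmem47* was then placed among all genes that were near silent in the empty vector. Of 29145 genes with at most 3 counts in every empty vector library, 17 reached a mean of at least 1 CPM in G-NHA9Midi, and *Tmem47* had the highest CPM of the 17. After it came the milk casein gene *Csn1s2a* (9.86 CPM), *Tgfb2* (8.9), *Azgp1* (8.71), the noncoding gene *RP24-216P6.3* (6.32), *Ly6f* of the Ly6 family (4.52), *Hoxb5os* in the *Hoxb* cluster (3.73), *Lce6a* of the late cornified envelope family (2.56), *Popdc3* (2.26) and *Vit*, the extracellular matrix gene vitrin (1.75). Per kilobase of exon, *Azgp1* (5.41 CPM per kilobase), *Hoxb5os* (5.35), *Ly6f* (5.15) and *Lce6a* (3.22) were above *Tmem47* (3.17). Of the 17 genes, *Tmem47* was the one on the X chromosome.

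Most of these genes had the order of levels seen for *Tmem47*. In 12 of the 17 the mean was highest in G-NHA9Midi, followed by G-NHA9-8FA and then G-NHA9. In 4 it was highest in G-NHA9 and in 1, *Hoxb5os*, in G-NHA9-8FA, at 9.65 CPM. *Csn1s2a* was uneven, at 6.84, 20.8, 7.22, 7.22 and 7.21 CPM in G-NHA9Midi and 0.163, 7.63, 1.6, 0.899 and 1.59 CPM in G-NHA9-8FA, with replicate 2 highest in both. *Tgfb2* was the more separate one, at 6.24, 13.2, 10.2, 6.12 and 8.76 CPM in G-NHA9Midi and between 0.971 and 1.77 CPM in G-NHA9-8FA, with no overlap. Its ratio of means was 7.16, beside 2.4 for *Tmem47*. Of the 17, 7 had at most 3 counts in every library of G-NHA9Midi-21FGAA and G-NHA9-ΔDNA, *Tmem47* among them. All 17 were selected by these levels, so their values are a description and no test of them is given. Choosing genes by their G-NHA9Midi mean favours those that are highest there, and hence the order counted here.

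**Figure D5:**
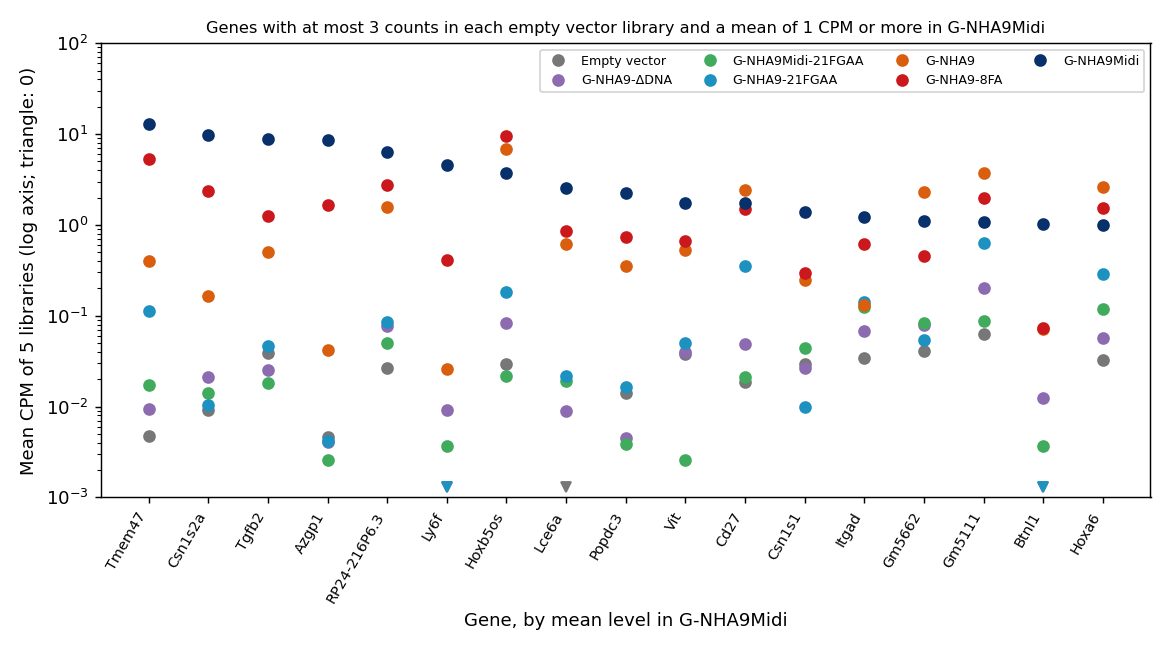
Mean CPM of 5 libraries (log axis) in each of the 7 conditions for the 17 genes with at most 3 counts in each empty vector library and a mean of at least 1 CPM in G-NHA9Midi, ordered by that mean, with triangles for a mean of 0, where conditions may lie over each other. *Tmem47* is at the left with 12.8 CPM in G-NHA9Midi, 5.33 in G-NHA9-8FA and 0.399 in G-NHA9, and *Hoxb5os*, *Cd27*, *Gm5662*, *Gm5111* and *Hoxa6* are higher in G-NHA9 or G-NHA9-8FA than in G-NHA9Midi.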

How the data were processed

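RNA-seq was analysed for 35 libraries in 7 conditions. The authors deposited whole-number read counts per gene without normalization. The submitters' processing notes name STAR 2.7.0d, HTSeq 0.11.2, DESeq2 and the build mm10, without roles, and the annotation and strand setting used for counting are not given in the sources used here. The methods and the labels differ in the read length, and the methods describe triplicates where the labels give 5 libraries. GENCODE M21 held 99.3% of the gene identifiers with the version ignored. Multi-copy genes depend on how shared reads were counted.

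The count tests were run with edgeR 4.0.16 in R 4.3.3 (filterByExpr, TMM, quasi-likelihood test, 1 model with a mean for each condition over all libraries). The filter kept 17166 genes and 99.96% of counts. P-values were adjusted by Benjamini-Hochberg within each of 8 comparisons, with a threshold of 0.05, and they measure the spread between these libraries. Genes next to *Tmem47* were also compared by the exact permutation test, since most were below the filter. Limits use 3 counts. No 2 libraries of a condition agreed within sampling noise (70 pairs, chi-square per degree of freedom at least 22.5). The procedure was also run on simulated data. Those libraries were drawn independently, without the correlation by replicate number described below, so error rates in the present data were not measured. Figures used Python 3.11.15 and matplotlib 3.10.9. *Tmem47* and all lists were chosen with earlier results of these data known. Named genes were *Tmem47*, the overlapping and 3 nearest genes on each side, up to 4 called members of each list with the largest change, 10 genes by correlation, and 10 by level among genes with at most 3 counts in every empty vector library, and other genes were named after their values were seen.

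Replicate numbers are shared across conditions. The correlation of deviations from condition means was 0.316 on average between same-numbered libraries and -0.076 between others. Every pair exceeded 0.1, the mark set for pairing, in the comparisons of G-NHA9, G-NHA9-ΔDNA and G-NHA9Midi-21FGAA with the empty vector. The calls and p-values given above nonetheless come from fits without pairing, in these comparisons too. Pairing entered only through a replicate block, which was among the alternatives. Alternatives were other scaling (none, RLE), no filter or a mean of 1 CPM, the block, a sex-linked covariate (log2 *Xist* less log2 summed Y-linked CPM), DESeq2 1.42.0, the 2 conditions alone, each replicate left out, and Spearman correlation or a prior count of 0.5 for likeness. Genes with a pattern opposite to that of *Tmem47* are not reported here.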

Additional observations from a re-analysis of the deposited data

Results flagged for a closer look

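Single libraries that stood far from the other 4 of their condition were sought for *Tmem47*, *Gm26775* and the 10 genes most like *Tmem47*. A library was marked when its gap to the nearest other, divided by the range, exceeded 0.71. For normally distributed values, chance marks about 1 in 20 groups. A group in which only 1 library holds reads is always marked, so that rate does not hold for genes with almost no reads. Of 80 groups examined, 15 were marked. In 13 of them the library held 1 or 2 reads and the others none. These were *Tmem47* in empty vector replicate 1 (0.024 CPM, 1 read) and G-NHA9-ΔDNA replicate 4 (0.0476 CPM, 2 reads), *Gm26775* in empty vector replicate 2 (0.023 CPM), G-NHA9 replicate 1 (0.0556 CPM) and G-NHA9-ΔDNA replicate 1 (0.0207 CPM), *Popdc3* in G-NHA9Midi-21FGAA replicate 3 (0.0196 CPM) and G-NHA9-ΔDNA replicate 5 (0.0224 CPM), *Glyat* in G-NHA9-ΔDNA replicate 5 (0.0224 CPM), *Azgp1* in empty vector replicate 2 (0.023 CPM), G-NHA9-21FGAA replicate 2 (0.0207 CPM), G-NHA9Midi-21FGAA replicate 5 (0.0127 CPM) and G-NHA9-ΔDNA replicate 3 (0.0205 CPM), and *Gm12408* in empty vector replicate 2 (0.023 CPM).

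The other 2 were in 1 library, G-NHA9-8FA replicate 5. *Abcg3* was at 19.5 CPM there and at most 9.86 CPM in the other 4 libraries, and *Azgp1* at 3.64 CPM and at most 1.49 CPM. *Tmem47* was also highest in that library of G-NHA9-8FA, at 8.53 CPM, without passing the limit.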

How the results depend on the processing

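The *Tmem47* values moved by less than the spread between libraries under every scaling and with each library left out. In the latter, the G-NHA9Midi mean was 10.8 to 14.3 CPM, its ratio to G-NHA9-8FA 2.03 to 2.89, and its bound over the empty vector 134 to 178. Of the 10 genes most like *Tmem47*, 3 stayed among the first 10 by Spearman correlation and 6 with a prior count of 0.5. *Abcg3* was at place 9 by Spearman correlation and at place 3 with a prior count of 0.5, where *Rassf6* was at place 1. Of the nearby genes, *Gm26775* was called in G-NHA9Midi against the empty vector without the filter (1 call, log2 fold change 3.06, adjusted p = 0.045 by edgeR), where the filtered fit called 0 of the nearby genes. With each replicate left out 0 to 1 of them were called, the 1 being *Gm8806* without empty vector replicate 4. Without the filter, *Gm26775* and *4930595M18Rik* were lower in G-NHA9Midi-21FGAA than in G-NHA9Midi (adjusted p = 0.0024 and 0.03 by edgeR).

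Of 729 genes called between G-NHA9Midi and G-NHA9-8FA, the number was 1314 with the replicate block and 1193 with the sex-linked covariate, and 379 to 894 with each replicate left out, the lowest without G-NHA9Midi replicate 2. It was 400 without G-NHA9Midi replicate 3 and 455 without G-NHA9-8FA replicate 2. In G-NHA9-ΔDNA against the empty vector, 2952 genes became 1918 to 3314, the lowest without G-NHA9-ΔDNA replicate 3. With the block, which pairs libraries by number, no list count changed by over 1.5 times. The cause of these changes was not tested. The counting depth could not order the 3 conditions in which *Tmem47* was at or below the 3-count limit.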
